A study of Drosophila melanogaster with 3 samples.

Results

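The genes examined are the translation initiation and elongation factor genes of Drosophila melanogaster, taken as every protein-coding gene whose symbol begins with eIF or eEF. The rule found 52 of the 13968 protein-coding genes on the chromosome arms, which leaves 13916 other genes. The chromatin immunoprecipitation with sequencing (ChIP-seq) data come from flies of strain svp-GFP, a transgenic line in which GFP is joined to the C terminus of svp. That gene encodes the fly COUP-TF nuclear receptor, whose ligand is not known. Whole animals were collected as white prepupae, the stage at which metamorphosis begins, with males and females pooled and no more exact age given. Chromatin was sonicated and taken down with an antibody to GFP in 3 biological replicates of 1 group, and no GFP-free library is used here. A peak at a gene can therefore not be told apart from chromatin that any antibody takes up, and in whole animals the tissue in which a site was occupied is not known.

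Eukaryotic initiation factors bring the small ribosomal subunit and the initiator tRNA to the start codon of an mRNA. The eIF4 proteins bind the cap and unwind the leader, eIF3 holds the small subunit, and eIF2 carries the initiator tRNA and is recharged with GTP by eIF2B. Elongation factors then deliver each aminoacyl-tRNA and move the ribosome along the message. Most of these genes are needed in every growing cell, and a few, such as eIF4EHP, hold back the translation of chosen mRNAs. In the insect prepupa, protein synthesis is reset as larval tissues are broken down and adult tissues grow.

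The sequences that follow are shown because they lie under the highest peak at a factor gene, under summits shared with a neighbouring gene, and under the gene with the most intron summits. Each is the plus strand of dm6, from the RefSeq genome of release 6, and centres on a peak summit except where untranslated region (UTR) bases were trimmed. Coding bases were kept, and the eIF3g2 summit lies in coding sequence of Tmlh. Capitals mark exact matches, on either strand, to GATAA, a word bound by zinc finger factors. They also mark matches to GAGAG, a word of open promoters, which reads as its reverse complement where it lies on the minus strand. The first is the stretch between eIF2Bbeta and Ugalt (chrX:2703853-2703923), which holds the highest peak at any factor gene. The second lies between eIF4EHP and CG18428 (chr3R:24109156-24109256) and the third upstream of eIF3g2 (chr3R:20407437-20407537). The last 3 are the intron summits of eIF5B (chr3L:3432850-3432950, chr3L:3449794-3449894 and chr3L:3430353-3430453), given in order of signal.
eIF2Bbeta: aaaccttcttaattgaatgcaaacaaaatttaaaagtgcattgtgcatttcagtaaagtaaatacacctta
eIF4EHP: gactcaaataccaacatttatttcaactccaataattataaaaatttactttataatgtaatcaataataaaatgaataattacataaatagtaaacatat
eIF3g2: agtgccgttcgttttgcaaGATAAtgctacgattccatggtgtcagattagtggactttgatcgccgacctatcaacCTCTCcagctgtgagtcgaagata
eIF5B, highest: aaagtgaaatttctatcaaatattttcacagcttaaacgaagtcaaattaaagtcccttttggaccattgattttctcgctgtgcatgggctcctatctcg
eIF5B, next: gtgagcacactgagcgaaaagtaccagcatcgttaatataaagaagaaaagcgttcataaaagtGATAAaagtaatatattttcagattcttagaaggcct
eIF5B, lowest: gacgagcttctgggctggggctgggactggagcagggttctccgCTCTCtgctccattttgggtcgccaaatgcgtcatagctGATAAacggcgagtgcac
The eIF2Bbeta and eIF4EHP windows and the highest eIF5B window held none of the 6 words searched, and the lowest eIF5B window held both words shown.

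Factor genes carried peaks about as often as other genes did. In the IDR-thresholded list (irreproducible discovery rate, the authors' set of peaks reproducible between replicates), 10 of the 52 genes had a promoter summit, meaning one at most 1000 bp from a transcription start site (TSS) of the gene. That is 19.2%, with an exact 95% binomial interval of 9.63% to 32.5%, against 16.0% of the other protein-coding genes. With summits anywhere in the gene body added, 12 of 52 (23.1%, interval 12.5% to 36.8%) had one, against 20.3% of other genes. Both intervals include the value of the other genes. They cover counting error over genes only, and neighbouring genes can share 1 summit. The list held 5443 peaks with a median signal value of 219, where the signal value is the authors' own score of peak height, used here only within 1 list.

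The strongest peak at each gene was mostly modest. The highest promoter summit of the 10 genes had a median signal value of 232, with a range of 143 to 3099, and a median rank of 2747.5 in the list. Among the 2233 other genes with a promoter summit the median was 287, with a range of 120 to 3099, and the median rank 1920. The upper end of both ranges is the same peak, which counted for eIF2Bbeta and for its neighbour Ugalt. In all, 17 summits lay at factor genes, 12 near a TSS and 5 only in a body. Of the 17, 8 were above the median of the list and 9 below it. Of the 17, 10 (58.8%) lay in one of the 5000 highest peaks of all 3 replicates, against 56.7% of the 5425 summits on the arms, and 13 (76.5%) lay in a peak of all 3 whole lists, against 88.1%.

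In single replicates the comparison with other genes changed with how far down the list it went. Among the 5000 highest peaks, promoter peaks lay at 6 factor genes in replicate 1 (11.5%, other genes 13.8%), 14 in replicate 2 (26.9%, other genes 17.7%) and 10 in replicate 3 (19.2%, other genes 17.1%). The mean was 19.2% ± 7.69 (SD, n = 3) against 16.2% ± 2.13, and the difference within a replicate was 3.04 ± 5.77 percentage points, smaller than its spread and below 0 in replicate 1. Each whole list holds exactly 30000 peaks, and there promoter peaks lay at 10 (19.2%), 20 (38.5%) and 19 (36.5%) factor genes, against 33.5%, 43.0% and 41.4% of other genes. The differences were then −14.2, −4.52 and −4.85 points, below 0 in all 3 replicates, and the mean was 31.4% ± 10.6 against 39.3% ± 5.09. With bodies added, 15, 23 and 21 factor genes had a peak (28.8%, 44.2% and 40.4%), against 41.0%, 49.1% and 48.9% of other genes. That difference was −8.50 ± 3.63 points and was below 0 in every replicate. With 3 replicates of 1 group, no test of these differences was made.

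**Figure D1:**
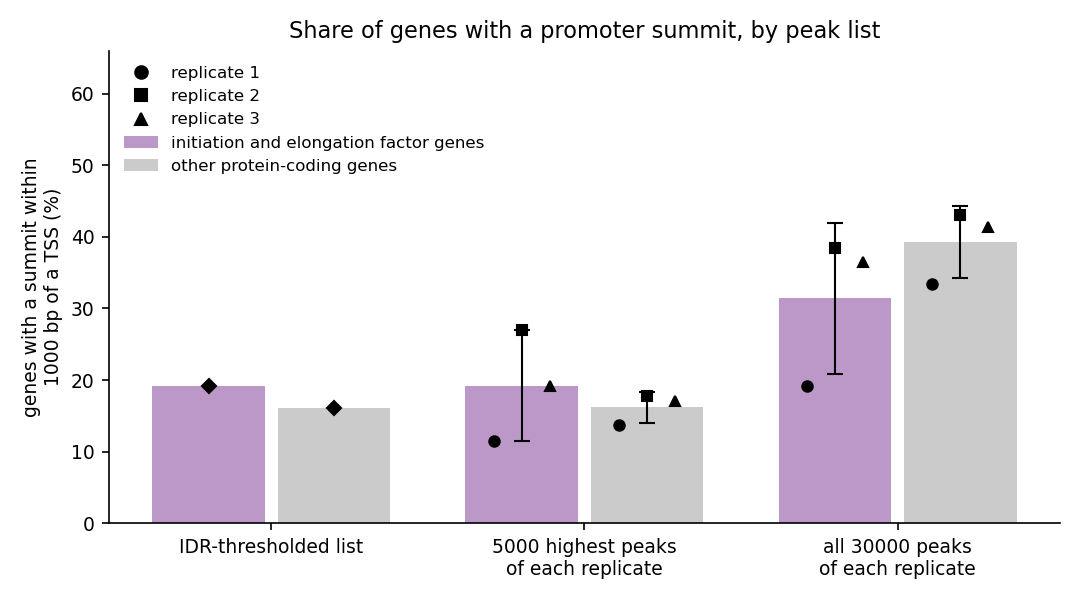
Share of genes with a promoter summit, in percent, for the 52 factor genes and all other protein-coding genes, in the IDR-thresholded list, in the 5000 highest peaks and in the whole list of each replicate. Bars over replicates are means of 3 with SD, and points are the replicates (circle 1, square 2, triangle 3) or the single value of the IDR-thresholded list (diamond). Factor genes averaged 19.2% against 16.2% among the 5000 highest peaks and 31.4% against 39.3% over the whole lists, with replicate 1 the lowest at factor genes in both.

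Most factor genes had no promoter peak in any replicate. Over the whole lists, 9 genes (17.3%) had a promoter peak in all 3 replicates, against 21.5% of other genes, and 29 (55.8%) had one in none, against 41.8%. Among the 5000 highest peaks, 5 genes (9.62%) had one in all 3 replicates, against 10.5% of other genes. These 5 were eIF2Bbeta, eIF6, eIF3c, eIF3g2 and eEFSec.

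The highest peak at a factor gene stood beside eIF2Bbeta, which encodes a subunit of the exchange factor that recharges eIF2 with GTP (chrX:2703668-2704106). Its signal value of 3099 ranked 2 in the IDR-thresholded list. The replicate values were 1007, 1124 and 986, with ranks 3, 3 and 2, so all 3 replicates placed it at the top of their lists. The summit lay 698 bp upstream of eIF2Bbeta and 21 bp upstream of Ugalt, a UDP-galactose transporter gene transcribed in the opposite direction. When a summit counts only for the gene with the nearest TSS, this peak belongs to Ugalt. The other summit in this group, at eIF2Bdelta, a regulatory subunit of the same complex, had a signal value of 174 and rank 3614 (chr2R:23385550-23386005). It lay 743 bp upstream of eIF2Bdelta in the 3' UTR of roh, with a TSS of CG30414 at 310 bp and one of roh at 653 bp. Its replicate values were 33.6, 74.3 and 55.7, and in replicate 1 it ranked 5768, outside the 5000 highest. Of the 8 genes of eIF2 and eIF2B, 2 (25%) had a promoter summit in the IDR-thresholded list, against 16.0% of other protein-coding genes. The 6 with none there were eIF2Balpha, eIF2Bepsilon, eIF2Bgamma and the eIF2 subunits eIF2alpha, eIF2beta and eIF2gamma.

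The peak of eIF6 was the highest that lay nearest to a factor gene's own TSS. The protein keeps the large ribosomal subunit from joining early and takes part in its assembly. The signal value was 1247, rank 91 (chr2R:23850222-23850575), and the replicate values were 389, 410 and 449, with ranks 84, 147 and 58. Each replicate has its own signal scale, so only the ranks compare between replicates. The summit was 91 bp upstream of eIF6 and in an intron of ytr, whose TSS lay 681 bp away.

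The other genes of start codon selection and subunit joining had lower peaks, and among them only eIF2A had a promoter summit in the IDR-thresholded list. At eIF2A, which encodes a factor that can bring the initiator tRNA to the ribosome, the promoter summit (chr3L:21824704-21825159) was weak. Its signal value was 143 and its rank 4558. This summit lay in the 5' UTR of eIF2A, 33 bp upstream of the nearer of the gene's 2 annotated TSSs. No peak of replicate 1 covered it, and replicates 2 and 3 gave 66.3 and 26.6. A second summit in its coding sequence (chr3L:21827145-21827600) was higher, at 285, with replicate values of 70.4, 149 and 67.1, and lay 822 bp from the TSS of CG32448. At eIF1A, which promotes scanning of the leader, 1 intron summit (chr3R:18279563-18280018) had a signal value of 257. Its replicate values were 67.0, 130 and 56.9, with ranks 2575, 1886 and 3339. It lay 5093 bp from the nearest TSS of eIF1A and 269 bp from that of CG7142.

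The gene of eIF5B, the GTPase that joins the ribosomal subunits, carried 3 intron summits and no promoter summit in the IDR-thresholded list. Their signal values were 260 (chr3L:3432719-3432946), 181 (chr3L:3449616-3450071) and 173 (chr3L:3430175-3430630), at 27703, 10759 and 30200 bp from its nearest TSS. The highest had replicate values of 65.9, 108 and 89.7, and the others lay between 40.6 and 75.6 in every replicate. All 3 were in the whole list of each replicate. The gene spans 32320 bp, against a median of 1955 bp for factor genes, and a longer gene has more room for summits. Replicate 3 alone also had a promoter peak at eIF5B among its 5000 highest, with a signal value of 97.1, rank 1539, 145 bp from a TSS. Of the 7 genes of this group, 4 had an IDR-thresholded summit in the promoter or body, where 20.3% of other protein-coding genes had one. The genes eIF1, eIF2D and eIF5 had none in that list.

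Among the 7 genes of eIF4E cap-binding proteins, 1 (14.3%) had a promoter summit in the IDR-thresholded list, near the 16.0% of other protein-coding genes. It was eIF4EHP, which binds the cap without recruiting the ribosome and so represses chosen mRNAs (chr3R:24109001-24109387). The signal value was 623, rank 472. Replicates 2 and 3 gave 243 and 238, at ranks 569 and 251. No peak of replicate 1 covered the summit, and the nearest in its list was 3542 bp away with a signal value of 37.2. The summit lay 246 bp upstream of eIF4EHP and 130 bp upstream of CG18428, which runs the other way. The general cap-binding gene eIF4E1 and its relatives eIF4E3, eIF4E4, eIF4E5, eIF4E6 and eIF4E7 had no IDR-thresholded summit in the promoter or body. In the whole lists, eIF4E3 had promoter peaks at rank 16021 in replicate 1 and 26876 in replicate 2.

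Of the 6 other eIF4 genes, eIF4A alone (16.7%) had promoter summits in the IDR-thresholded list, near the 16.0% of other protein-coding genes. It encodes the RNA helicase that unwinds leaders. One summit, 73 bp from a TSS in the 5' UTR (chr2L:5982208-5982663), had a signal value of 154, and another, 552 bp from a TSS in the coding sequence (chr2L:5982918-5983373), had 155. The first gave 107 and 61.7 in replicates 2 and 3 and the second 58.1 and 37.0, and no peak of replicate 1 covered either. Replicate 1's nearest summit was 1308 bp away, with a signal value of 20.4 and rank 12180, at −636 bp from a TSS (upstream). No IDR-thresholded summit lay in the promoter or body of the helicase partner genes eIF4B, eIF4H1 and eIF4H2 or the scaffold genes eIF4G1 and eIF4G2.

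**Figure D2:**
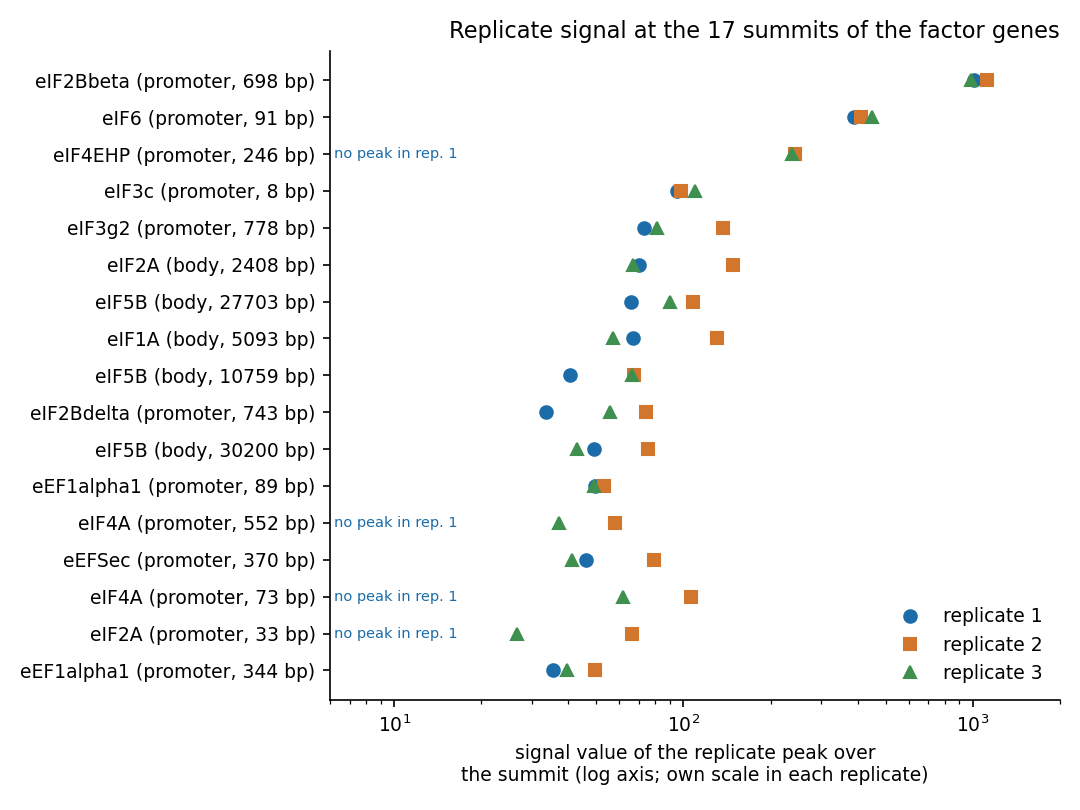
Signal value of the replicate peak that covers each of the 17 IDR-thresholded summits at factor genes, on a log axis, with the distance from the gene's nearest TSS in the label. Each replicate has its own scale. The eIF2Bbeta summit lies between 986 and 1124 and eIF6 between 389 and 449, while eIF4EHP, both eIF4A summits and the promoter summit of eIF2A had no peak in replicate 1.

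Of the 16 eIF3 genes, 2 (12.5%) had promoter summits in the IDR-thresholded list, near the 16.0% of other protein-coding genes. At eIF3c, a core subunit, the summit lay 8 bp from the TSS (chr2R:17665442-17665897) with a signal value of 297. The replicate values were 94.8, 98.4 and 110, with ranks 1598, 2828 and 1238, so replicate 2 ranked it lowest. The receptor gene CCHa1-R had a TSS 602 bp away. At eIF3g2, a copy of the RNA-binding g subunit, the summit had a signal value of 290 (chr3R:20407372-20407570). Its replicate values were 73.2, 137 and 81.2, with ranks 2271, 1739 and 2049. It lay 778 bp upstream, in coding sequence of Tmlh, whose TSS was 384 bp away. The 14 eIF3 genes with no summit in that list were eIF3a, eIF3b, eIF3d1, eIF3d2, eIF3e, eIF3f1, eIF3f2, eIF3g1, eIF3h, eIF3i, eIF3j, eIF3k, eIF3l and eIF3m.

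Of the 8 elongation factor genes, 2 (25%) had promoter summits in the IDR-thresholded list, against 16.0% of other protein-coding genes. They were eEF1alpha1 and eEFSec. The first encodes the abundant GTPase that delivers aminoacyl-tRNA, and the second is named as the selenocysteine-specific elongation factor. The summits of eEF1alpha1 lay 89 bp from a TSS (signal 161, chr2R:11891983-11892438) and 344 bp from it (signal 130, chr2R:11892238-11892693), both in an intron. The nearer gave 49.3, 53.2 and 48.9 in the replicates, ranks 3750, 6067 and 4005, so it was outside the 5000 highest in replicate 2. The farther gave 35.3, 49.4 and 39.4 and was outside the 5000 highest in every replicate. At eEFSec the summit (chr2R:21386363-21386818) had a signal value of 154 and replicate values of 46.0, 78.9 and 41.2. It lay 370 bp upstream of eEFSec, in the 5' UTR of Acox57D-p, a peroxisomal acyl-CoA oxidase gene. The nearest TSS of Acox57D-p was 35 bp away, so the nearer TSS was not that of the elongation factor. The 6 with no IDR-thresholded summit were eEF1alpha2, eEF1beta, eEF1delta, eEF1gamma, eEF2 and eEF5.

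**Figure D3:**
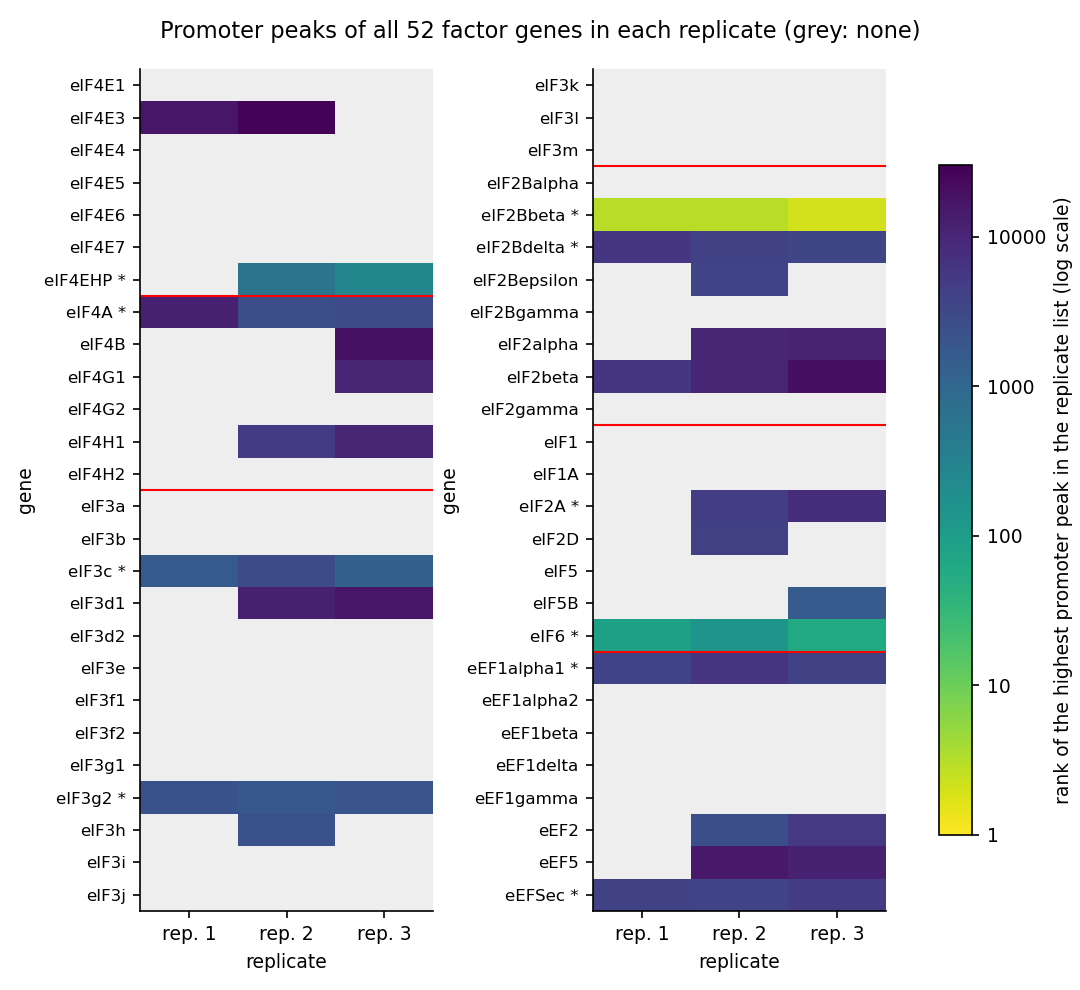
Rank of the highest promoter peak of each factor gene in the whole list of each replicate, on a colour scale, with genes in rows grouped by role between red lines. Stars mark the 10 genes with a promoter summit in the IDR-thresholded list. The eIF2Bbeta peak ranks 3, 3 and 2 and that of eIF6 84, 147 and 58, and 29 genes have no promoter peak in any.

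Of the 10 factor genes with a promoter summit, 9 have another gene's TSS within 1000 bp of their own, against 52.04% of the 2233 other genes with a promoter summit. Of the 12 promoter summits, 7 (58.3%) also had another gene's TSS within 1000 bp, and 5 (41.7%) were nearer to that gene than to the factor gene. Over the 2974 pairs of another gene and a promoter summit, the shares were 40.0% and 18.8%. Of the 28 factor genes with another gene's TSS within 1000 bp, 9 (32.1%) had a promoter summit, against 19.5% of other genes of that kind. Of the 24 without such a neighbour, 1 (4.17%) had one, eIF2A, against 13.5% of other genes. Counting each summit only for the nearest TSS left 5 of 52 factor genes (9.62%), against 13.0% of other genes. The 5 were eEF1alpha1, eIF2A, eIF3c, eIF4A and eIF6. Close neighbours were more common at factor genes (53.8%) than at others (42.8%), and their part in the counts was not tested.

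Relative to the factor gene's nearest TSS, 8 of the 12 promoter summits lay upstream and 4 downstream. The 8 include the eIF2A summit, which lies inside that gene, in its 5' UTR. The median distance from the TSS was 295 bp, and 6 lay within 250 bp. These positions were not counted for other genes, so whether they are usual is not known. The eEFSec, eIF2Bbeta, eIF2Bdelta, eIF3g2 and eIF4EHP summits, all upstream, were nearer to another gene's TSS. Farthest from the TSS inside the limit of 1000 bp were eIF3g2 at 778 bp, eIF2Bdelta at 743 bp and eIF2Bbeta at 698 bp. The nearest outside it were eIF3d1 at 1276 bp (signal 369), eIF3f2 at 1750 bp and eIF2beta at 2506 bp (signal 772), the last beyond 2000 bp as well. The peak nearest to eIF3f2 had a signal value of 1685 and ranked 35 in the list, above every peak at a factor gene except that of eIF2Bbeta. Over all genes, the median distance from a TSS to the nearest summit was 14928.5 bp for factor genes and 10364 bp for the others.

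**Figure D4:**
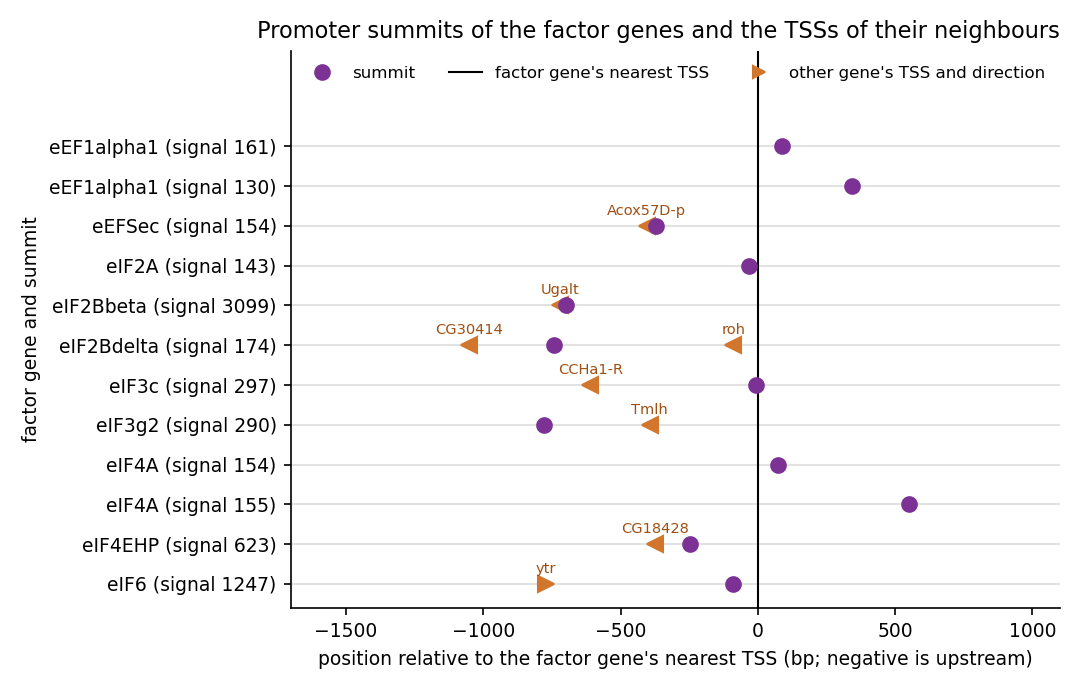
Distance of each of the 12 promoter summits from the nearest TSS of its factor gene in bp, with negative values upstream, and of any other gene's TSS within reach of the same summit. The eIF2Bbeta, eIF2Bdelta, eIF3g2, eIF4EHP and eEFSec summits lie closer to the other gene, and those of eIF3c and eIF6 closer to the factor gene.

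Factor genes were of similar length to other genes and more often had several TSSs. Median gene length was 1955 bp for factor genes and 2165.5 bp for others, and 1 TSS was annotated at 61.5% and 73.6%. Factor genes with 1 TSS had a promoter summit in 5 of 32 cases (15.6%), against 11.0% of others. With 2 or more TSSs it was 5 of 20 (25%), against 30.2%. By chromosome arm, 5 of the 13 factor genes on 2R (38.5%) had one, against 16.4% of the others on that arm, and 1 of 5 on 2L (20%), against 15.3%. The shares were below those of the others on 3L (1 of 11, 9.09%, against 15.8%), on 3R (2 of 15, 13.3%, against 15.7%) and on X (1 of 7, 14.3%, against 18.0%). On chromosome 4 it was 0 of 1, against 3.80%.

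Replicate 1 missed several of these sites. Of the 17 summits at factor genes, 4 (23.5%) lay outside every peak of replicate 1 and none outside those of replicates 2 and 3. Over all 5425 summits on the arms the shares were 9.99%, 0.811% and 1.66%, so replicate 1 stood apart there as well. Among the 42 factor genes with no IDR-thresholded promoter summit, 6 (14.3%) had a promoter peak among the 5000 highest of a replicate, against 7.76% of the 11683 other genes without one. By replicate, other genes of that kind had such a peak in 1.58%, 4.63% and 4.02%. In replicate 2 the factor genes were eIF3h (signal 117, rank 2205), eEF2, the factor that moves the ribosome along the message (105, rank 2569), eIF2Bepsilon (80.0, rank 3725), eIF2D (72.7, rank 4209) and eIF4H1 (64.6, rank 4858). In replicate 3 it was eIF5B, and in replicate 1 there was none. The weak promoter peak of eIF2beta was in all 3 whole lists without passing the IDR threshold, at ranks 5861, 10084 and 19681.

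At least 1 of the 6 words searched lay at 9 of the 17 summits at factor genes (52.9%), against 44.5% of all summits, and most of these matches were GATAA or GAGAG. Exact words were looked for on both strands and within 50 bp of a summit. Nuclear receptors bind the half-site AGGTCA. The zinc finger factors of the GATA family bind GATAA, and the promoter factor DREF binds the DRE core TATCGATA. The E-box CACGTG is bound by helix-loop-helix factors, the word GGTCACAC is a core promoter element of the fly, and GAGAG is a word of open promoters. None of the 17 summits at factor genes held AGGTCA, against 5.35% of all summits and 2.68% of windows 500 bp to either side. GATAA lay at 5 (29.4%), against 31.1% of all summits and 18.6% of those flanks. GAGAG lay at 4 (23.5%), against 14.0% and 13.6%. The GGTCACAC word lay at 2, the promoter summit of eIF2A and the summit of eIF2Bdelta, which is 11.8% against 0.479% of all summits. TATCGATA and CACGTG lay at 0, against 0.406% and 0.848%. With 17 summits, a share of a few percent is not detectable, and no match says only that these letters are not in the window.

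The DRE core lay in a larger share of factor gene promoters than of others, a count for which no test was made. In the stretch from 250 bp upstream to 50 bp downstream of the most upstream TSS, TATCGATA lay in 14 of 52 factor genes (26.9%), against 9.30% of other genes. It lay in 4 of the 10 genes with a promoter summit and in 10 of the 42 without one. Except for GAGAG, the other words lay in shares closer to those of other genes. AGGTCA was in 3 (5.77%, others 5.89%), GATAA in 28 (53.8%, others 55.2%), GGTCACAC in 6 (11.5%, others 7.68%) and CACGTG in 4 (7.69%, others 4.22%). GAGAG lay in a smaller share of factor gene promoters, 8 (15.4%), against 29.8% of others. GATAA is common in this genome, and a match is a description, not a bound site.

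One promoter with the DRE core is shown as an example, that of eIF4A on 2L (chr2L:5981514-5981763), given in the direction of the gene and ending 1 base before its most upstream TSS. It is read from the RefSeq genome on dm6, and capitals mark TATCGATA.
eIF4A promoter: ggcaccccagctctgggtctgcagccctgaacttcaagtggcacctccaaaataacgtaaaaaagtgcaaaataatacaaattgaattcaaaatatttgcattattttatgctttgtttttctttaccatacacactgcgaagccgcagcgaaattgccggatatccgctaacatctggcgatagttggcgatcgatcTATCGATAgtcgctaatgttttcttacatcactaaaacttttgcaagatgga

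Other genes of translation, from lists chosen with earlier results of these data known, gave different counts beside the 16.0% of all other protein-coding genes. Promoter summits lay at 4 of 7 genes of termination, recycling and rescue, the highest at MCTS1 (883), a reinitiation factor, followed by HBS1 (185), the release factor gene eRF1 (177) and pelo (144). They lay at 9 of 21 regulators of initiation, with larp, an RNA-binding protein gene, at 2367, the kinase gene Lk6 at 2278, brat at 640 and crc, the fly ATF4 gene, at 304. None of the 9 mitochondrial translation factor genes had one. For the aminoacyl-tRNA synthetases the count was 3 of 18, at GluProRS (339), IleRS (281) and AspRS (270). For the cytosolic ribosomal proteins it was 13 of 92, the highest at RpS19b (531), RpS28b (391), RpL14 (271) and RpL34b (239). The distances of these summits from the TSS varied, with 35 bp at RpL14 and 61 bp at HBS1 but 848 bp at RpS19b and 972 bp at Lk6. Whether another gene's TSS was nearer is not given for these lists. No list was tested against another.

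**Figure D5:**
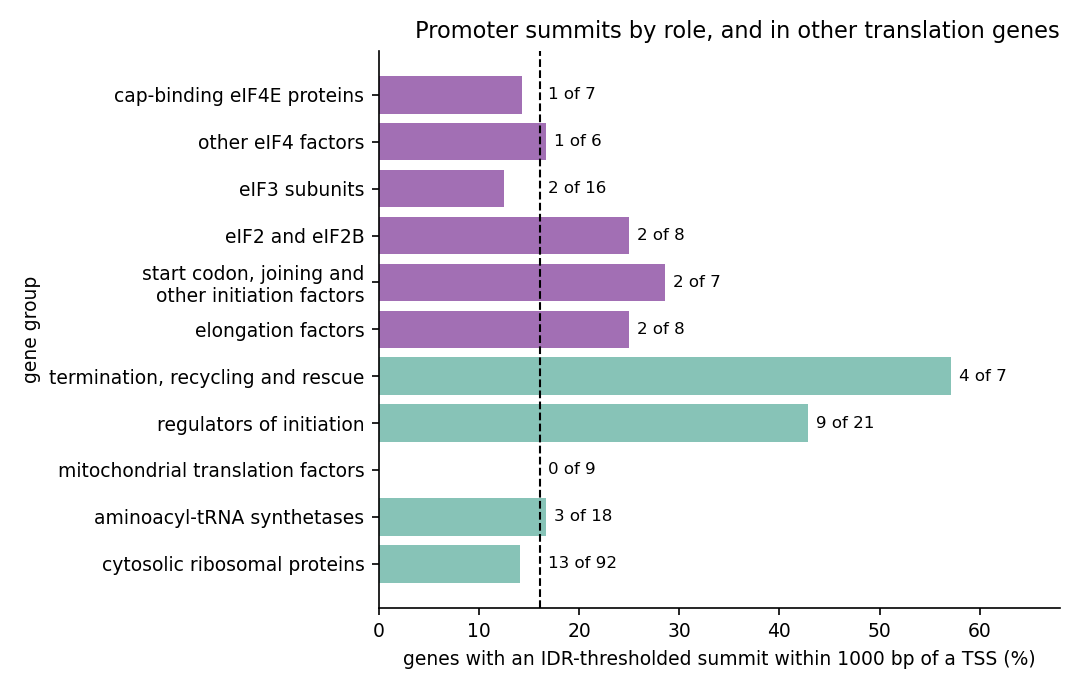
Share of genes with a promoter summit in the IDR-thresholded list, in percent, by role among the factor genes (purple) and in other lists of translation genes (green), with the counts beside the bars. The dashed line is the 16.0% of all other protein-coding genes; the factor groups lie between 12.5% and 28.6%.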

How the data were processed

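Peak lists in narrowPeak format on dm6 from 3 replicates were used; the dm3 lists were not. Per the deposited manifests, the alignments of a replicate, with 1 control file that all share, gave its list. The alignments of all 3 together gave a pooled list, and these lists gave the IDR-thresholded one. Aligner, caller and IDR threshold: not given in the sources used here. Read depth is unknown. The signal values were deposited by the authors without a stated scale and served to rank peaks inside a list only. A −log10 q-value, likewise deposited, entered no result. A peak was placed at its summit, and every summit of an interval counted.

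Genes and TSSs came from Ensembl release 115 and sequence from the RefSeq genome of release 6; the chromosome names were matched, and coordinates count from 1. A promoter summit lies within 1000 bp of any annotated TSS, and a body summit lies between the ends of the gene. Shares carry exact 95% binomial intervals for counting error, and replicate values are means ± SD. Labels do not say whether replicates came from separate crosses. No test was made, since there is 1 group and the members and lists were chosen with earlier results of these data known. In the lists of other translation genes, 8 symbols had no match in the annotation and were dropped. The text names every factor gene with a promoter or body summit, the others by name and role group, the gene that shares a summit, and the 4 highest of each other list. A few more, named for peaks in single replicates or outside 1000 bp, were chosen after their values were seen. Alternatives changed the distance, the TSSs counted, the peak list and the replicates used. The steps were tested on simulated data. Python 3.11.15, numpy 2.4.6 and scipy 1.17.1 were used.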

Additional observations from a re-analysis of the deposited data

How the results depend on the processing

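The count of 10 factor genes with a promoter summit moved by more than 1.5 times under 3 settings besides those that asked for support in 2 replicates. It was 5 (9.62%, other genes 13.0%) with the nearest TSS only, 5 (9.62%, others 10.1%) with the 50% of peaks of higher signal, and 5 (9.62%, others 10.04%) with peaks in the top 5000 of all 3 replicates. The support settings kept only IDR-thresholded summits inside a top 5000 peak of both replicates other than replicate 1, 2 or 3. The list itself still came from all 3 replicates, and such a cut cannot raise the count. The count was then 8, 6 and 5 (15.4%, 11.5% and 9.62%), where others had 12.2%, 10.8% and 11.0%. Over 11 alternatives, the factor genes' share was above that of other genes in 7 and below it in 4. With bodies added, the 12 became 7 (13.5%, others 17.8%) with the nearest TSS only, and 8 to 11 under the same support settings (21.2%, 17.3% and 15.4%, others 16.0%, 14.6% and 14.6%). The mean share among the 5000 highest peaks, 19.2%, was 10.3% with the nearest TSS only (others 12.9%), 9.62% with the 2500 highest (others 10.1%) and 31.4% with all peaks (others 39.3%), and 15.4% to 23.1% without 1 replicate. The whole-list mean of 31.4% stayed within its spread, from 27.9% to 37.5% without 1 replicate. The median signal value of 232 was 161 at 500 bp, 294 at 2000 bp and 294 to 297 under the support settings. The cause of these moves was not tested. For the 12 named genes, the highest promoter summit, or else the highest body summit, was followed over the alternatives. Of 132 cases, 100 had the same value, 8 took another value and 24 had no summit left. A summit that remains keeps its deposited signal value, so the same value was fixed in advance and shows only that the summit remained. A body summit counts at any distance from a TSS. No paired analysis was possible because there is 1 group. The unknown read depth, the control file shared by all replicates and the lack of a GFP-free library limit every value, and no setting addressed them.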
